A study of Homo sapiens with 6 samples.

Results

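The loci described here are the rows of the count table that carry a genomic clone name beginning with RP11 and that collected at least 3000 raw counts over the 6 libraries. They were chosen by these summed counts alone, and there were 85 of them among 10761 RP11 rows and 50883 rows in all. Total RNA was sequenced from D283, an established human medulloblastoma cell line, in 3 control libraries and 3 OTX2 knockout libraries. Both groups were infected with a lentivirus that expresses GFP, carrying a non-targeting guide RNA in the controls and a guide RNA against OTX2 in the knockouts, and cells were collected after 7 days. OTX2 encodes a homeobox transcription factor. Neither the source of the nuclease nor the share of edited cells is given in the sources used here, so a knockout library may hold unedited cells.

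RP11 is the name of a library of human bacterial artificial chromosomes that supplied much of the reference genome sequence. Annotators gave a transcribed locus without an approved gene symbol the name of the clone it lay on, with a number after the dot for each locus on that clone. Such names cover long noncoding RNAs, antisense transcripts, pseudogenes, transcripts within introns and unconfirmed coding genes, and many were later replaced by approved symbols. The name therefore says where a locus was found and nothing of its function. Long noncoding RNAs as a class are often expressed at low levels and in few cell types, and many stay in the nucleus, where sequencing of total RNA can detect them.

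Of the 85 names, 0 matched a gene name in GENCODE release 29 or a symbol or synonym in RefSeq for GRCh38 patch 14. Their coordinates, transcript types, overlapping genes and sequences were not analysed here. Each locus is identified by the name in the deposited table, and reads from a gene that overlaps it could not be told apart from its own, since strand-specific counting is not stated.

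Library totals lay between 54540645 and 62166870 counts. OTX2 itself held 1002, 979 and 909 CPM in the controls and 765, 824 and 887 CPM in the knockouts, or -0.22 on the log2 scale (SE 0.06, adjusted p = 0.00646). CPM are counts relative to library size, here with TMM factors (trimmed mean of M values). An edited gene can still be transcribed, so its level says little about the labels. Of 8 markers of Group 3 medulloblastoma and its photoreceptor-like programme, 0 were at 0, and their summed level was 4506 to 4827 CPM in the controls and 3155 to 3727 CPM in the knockouts. The 7 cerebellar and neural markers summed to between 112 and 117 CPM in the controls and between 226 and 258 CPM in the knockouts. In group means NEUROD1 went from 41.2 to 147 CPM and ZIC1 from 73.4 to 92.3 CPM. BARHL1 (0.00602 to 0.781 CPM) and PAX6 (0.0788 to 0.423 CPM) rose from very low levels, and EOMES held 0.238 and 0.275 CPM. LMX1A had 3 counts in all and ATOH1 12. Of the 3 immune markers CD3E was at 0 and the sum did not exceed 0.338 CPM in any library. The 3 fibroblast markers summed to between 8.74 and 9.40 CPM in the controls and between 18.0 and 19.1 CPM in the knockouts. In group means COL1A1 went from 4.42 to 9.29 CPM and COL1A2 from 0.472 to 4.47 CPM, but PDGFRA only from 4.27 to 4.87 CPM. The 3 endothelial markers summed to between 2.22 and 3.32 CPM in the controls and between 5.06 and 5.90 CPM in the knockouts. Most of this was VWF (mean 2.78 to 5.12 CPM), while PECAM1 and CDH5 did not exceed 0.298 CPM in any library. The part of these markers in the differences below was not tested. Control replicate 1 had 0.764% of its counts in mitochondrial genes, against 0.440% to 0.601% in the other 5 libraries.

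The 85 loci were a small part of the RP11 rows and held about as many counts as all the others together. They were chosen by their counts, so a large share of counts and enough counts for the test follow from the rule. Of the 10761 RP11 rows, 5018 had 0 counts in every library and 1678 had enough counts to be tested, among them all 85. The 85 loci made up 0.79% of the rows and 49.8% of the RP11 counts. They took 0.185% to 0.194% of each control library and 0.187% to 0.192% of each knockout library. Their summed level was 1972, 1931 and 1979 CPM in the controls and 1844, 1835 and 1853 CPM in the knockouts, so all 3 knockout libraries lay below all 3 controls on this scale, while the shares of raw library totals overlapped.

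CPM is not corrected for transcript length, so it does not rank the loci by number of molecules. Mean CPM ran from 8.52 to 86.0, with a median of 15.7. The 10 loci with the most counts held 31.1% of the counts of the set, and 20 loci held 50% of them. The 3 loci just inside the sum were RP11-205M3.3, RP11-342I1.2 and RP11-295P9.3, with 3144, 3076 and 3039 counts. The 3 RP11 rows just outside were RP11-803B1.8, RP11-742N3.1 and RP11-260M19.2, with 2965, 2824 and 2810. The sum used all 6 libraries without regard to group, and 9 of the 85 loci had under 1500 counts in 1 of the groups, 7 of them in the controls and 2 in the knockouts.

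Replicates lay close together at this depth, though control replicate 1 stood somewhat apart. It was the highest control in 38 of the loci, replicate 2 in 18 and replicate 3 in 29, and it was the lowest in 27. Over all tested genes, Pearson's r of log2(CPM + 1) was 0.9986 and 0.9983 between control replicate 1 and the other controls. Between control replicates 2 and 3 it was 0.9991. The median coefficient of variation over 3 replicates was 4.88%, against 4.00% for all tested genes with the same sum and 16.9% for the tested RP11 rows below it. The smallest count of any of these loci in any library was 364, at which counting error alone gives 5.24%. RP11-727A23.5 had the widest spread among controls, 20.1%, with 10.5 CPM in control replicate 1 against 7.21 and 7.92 CPM in the other controls. Its 3 knockout libraries held 9.47, 9.48 and 9.48 CPM. The widest spread among knockouts was 17.3% for RP11-54O7.3.

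Of the 85 loci, 18 rose and 27 fell in the knockout libraries (adjusted p under 0.05 in edgeR's quasi-likelihood test over all 18420 tested genes), and 40 passed in neither direction. In RNA from a whole culture, fewer cells that express a locus and less RNA per cell cannot be told apart. Among all tested genes, 39.7% were called, 21.2% as rises and 18.5% as falls. The loci had 52.9% called, 21.2% as rises and 31.8% as falls, and the 10046 tested genes with the same sum had 46.5%, 18.7% and 27.8%. The share of calls was therefore near that of the genes with the same sum, whose median level was higher (43.1 CPM against 15.7 CPM). The balance of directions depended on the scaling: rises were 18 of the 45 calls with TMM, but 60.5% of the calls with library totals alone, where 26 loci rose and 17 fell. Without control replicate 1, 19 rose and 25 fell. The median log2 fold change of the loci was -0.03 with TMM and 0.05 with library totals alone, and that of all tested genes was 0.01 and 0.08. The groups were fully separate in 46 of the 85 loci (54.1%), 20 of them higher and 26 lower in the knockouts, beside 49.2% of all tested genes and 55.5% of those with the same sum.

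Large falls took a larger share of the loci than of all genes that reached the same sum. Those genes share only the lower bound of counts, and their median was 43.1 CPM against 15.7 CPM for the loci. The part of this difference in depth was not tested. A fall of at least 1.5-fold was called for 11 of the 85 loci (12.9%), beside 2.73% of all tested genes and 1.80% of those with the same sum. A rise of that size was called for 1 locus (1.18%), beside 10.2% of all tested genes and 3.56% of those with the same sum. Among 69 rows with other clone names and the same sum, 3 fell and 2 rose by that much. Of 27 loci with LINC symbols 1 fell and 0 rose, and of 71 with antisense or intronic-transcript symbols 2 fell and 1 rose. The median level was 17.3 CPM for the other clone names and 15.4 CPM for the antisense or intronic-transcript symbols. A further 7170 genes, with all other symbols, had counts between the sum and those of the largest locus (median 31.3 CPM). Of these genes 1.70% fell and 4.39% rose by that much. These shares describe the classes, and the difference between them was not tested. The count of large falls moved little with scaling: it was 11 with size factors of the relative log expression method (RLE) and 10 with library totals alone. With at least 1500 counts required in each group, it was 9 of 76 loci. The median size of the log2 fold change, without its sign, was 0.18 for the loci, 0.13 for genes with the same sum and 0.17 for the other clone names.

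**Figure D1:**
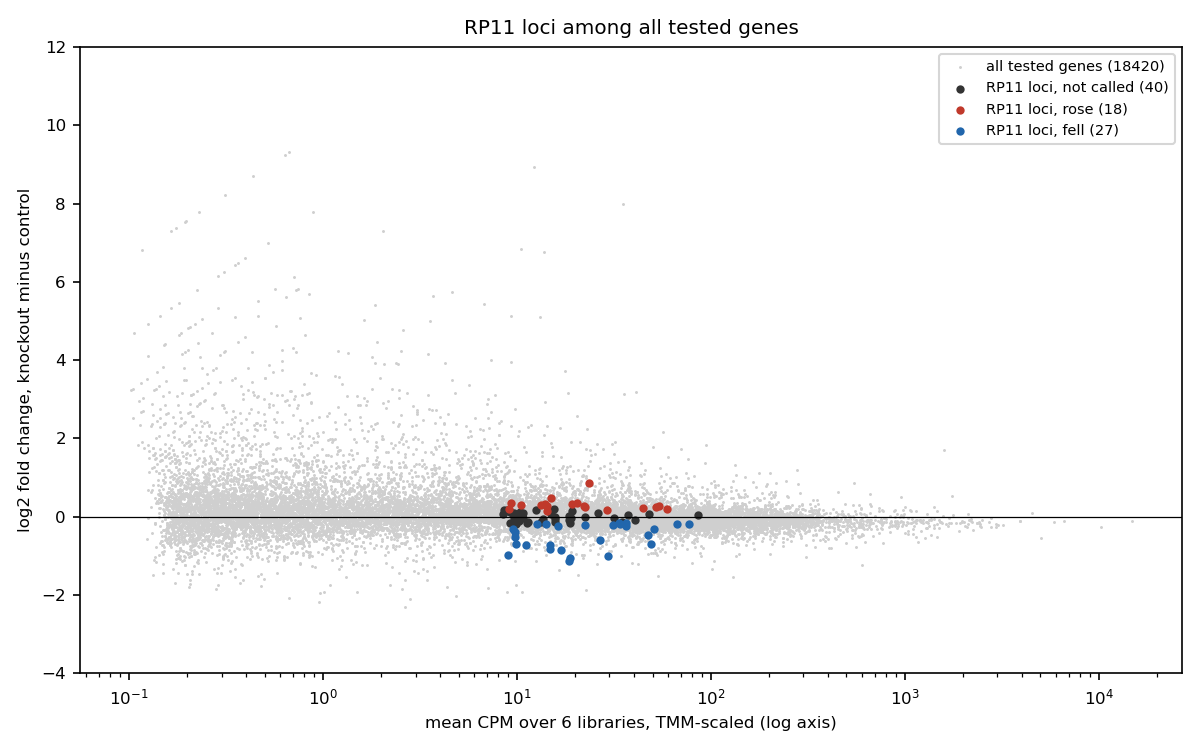
Mean CPM over the 6 libraries (log axis) against log2 fold change, knockout minus control, for the 18420 tested genes (grey) and the 85 RP11 loci (black not called, red rose, blue fell). The loci lie between 8.52 and 86.0 CPM, and 11 of them reach a fall of at least 1.5-fold while 1 reaches such a rise.

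Tested against a 1.5-fold change with edgeR's glmTreat, the loci gave 1 rise and 6 falls (8.24%), beside 6.55% of all tested genes and 3.09% of those with the same sum. The 6 falls were RP11-215N21.1, RP11-77E14.2, RP11-39E3.3, RP11-205M3.3, RP11-163F15.1 and RP11-13K12.2, and the rise was RP11-567M16.1.

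The 10 largest falls and rises given next were taken among called loci whose groups did not overlap, so the lack of overlap among them is a condition and not a result. RP11-215N21.1 had the largest fall. It held 26.7, 23.3 and 26.8 CPM in the controls and 10.4, 10.9 and 13.7 CPM in the knockouts. Every knockout library was below every control by a wide margin, a 2.19-fold fall, or -1.13 on the log2 scale (SE 0.09, adjusted p = 1.11e-07). RP11-77E14.2 held 24.8, 25.5 and 25.9 CPM in the controls against 11.9, 12.1 and 12.8 CPM. Its replicates were tighter, and the 2.08-fold fall had the smallest adjusted p of the 85 loci in edgeR's test, 1.65e-09. They were the only loci of the set to fall more than 2-fold, beside 0.798% of all tested genes and 23 of the 10046 with the same sum. Of the loci 0 rose more than 2-fold, beside 6.03% of all tested genes but 1.28% of those with the same sum.

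RP11-39E3.3 fell from 42.8, 39.2 and 36.4 CPM to 17.7, 20.9 and 20.8 CPM, a 1.99-fold fall (log2 fold change -0.99, SE 0.07). RP11-205M3.3, the smallest of the large falls in counts, went from 12.4, 11.5 and 11.9 CPM to 6.25, 6.16 and 5.75 CPM, a 1.97-fold fall. Its raw counts summed to 2001 for the controls and 1143 for the knockouts, so it passed the sum through the controls, where it was high, as did RP11-369J21.11 with 2041 and 1411. RP11-163F15.1 fell 1.8-fold, from 22.8, 20.9 and 21.7 CPM to 12.5, 11.4 and 12.4 CPM. RP11-13K12.2 fell 1.78-fold, from 19.1, 18.0 and 19.6 CPM to 10.4, 10.3 and 11.2 CPM. In edgeR's test the largest adjusted p among these 4 loci was 7.31e-08.

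The next falls lay between 1.52-fold and 1.65-fold and did not pass the test against 1.5-fold. RP11-267N12.3 held 18.4, 16.8 and 19.9 CPM in the controls and 11.2, 11.0 and 11.1 CPM in the knockouts. RP11-527N22.1 held 13.1, 14.6 and 13.8 CPM against 7.50, 8.63 and 9.02 CPM. RP11-369J21.11 held 12.3, 11.4 and 12.8 CPM against 7.46, 7.39 and 7.57 CPM. In all 3 loci the lowest control was well above the highest knockout library. RP11-799P8.1 was the most highly counted of the large falls, with 58.4, 59.9 and 65.0 CPM in the controls and 36.8, 35.3 and 40.8 CPM in the knockouts (1.62-fold, log2 fold change -0.70, SE 0.06, adjusted p = 2.75e-07). RP11-379B18.5, named after its values were seen as the remaining fall of that size, dropped from 32.5 ± 1.11 to 21.4 ± 0.9998 CPM (SD, n = 3 per group).

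Rises were smaller, with 1 exception. RP11-567M16.1 held 14.2, 17.4 and 18.2 CPM in the controls and 31.9, 30.4 and 28.4 CPM in the knockouts. All 3 knockout libraries stood above all 3 controls, control replicate 1 was the lowest of all, and the 1.82-fold rise gave 0.87 on the log2 scale (SE 0.08, edgeR adjusted p = 4.92e-07). RP11-66N24.3 followed at 1.39-fold, from 12.6, 12.7 and 12.1 CPM to 18.1, 16.9 and 17.0 CPM (adjusted p = 1.55e-05). The other 16 rises were smaller. RP11-504P24.8 rose 1.28-fold from 8.32, 8.15 and 8.08 CPM to 10.1, 11.5 and 9.86 CPM. Its raw counts summed to 1373 for the controls and 1978 for the knockouts, so it passed the sum through the knockouts, where it was high. RP11-54O7.1 rose 1.27-fold, from 18.7, 16.3 and 18.9 CPM to 26.3, 21.4 and 20.7 CPM, with knockout replicate 1 the highest.

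The rest of the 10 largest rises without overlap lay between 1.2-fold and 1.25-fold. RP11-531A24.3 was called at 1.23-fold but is not among them, since its groups overlapped. Those taken were RP11-196G18.22 (17.2 ± 1.79 to 21.5 ± 1.16 CPM, SD, n = 3 per group), RP11-15H20.5 (12.4 ± 0.723 to 15.4 ± 0.801 CPM) and RP11-305E17.6 (11.9 ± 0.469 to 14.6 ± 0.245 CPM). RP11-37B2.1 went from 20.1 ± 1.70 to 24.4 ± 0.814 CPM, RP11-156P1.3 from 49.0 ± 1.95 to 59.0 ± 2.22 CPM and RP11-622K12.1 from 12.9 ± 0.393 to 15.5 ± 0.186 CPM. Over all 18 rises the median was 1.21-fold, and over all 27 falls it was 1.32-fold. A change under 1.2-fold made up 8 of the rises and 11 of the falls.

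**Figure D2:**
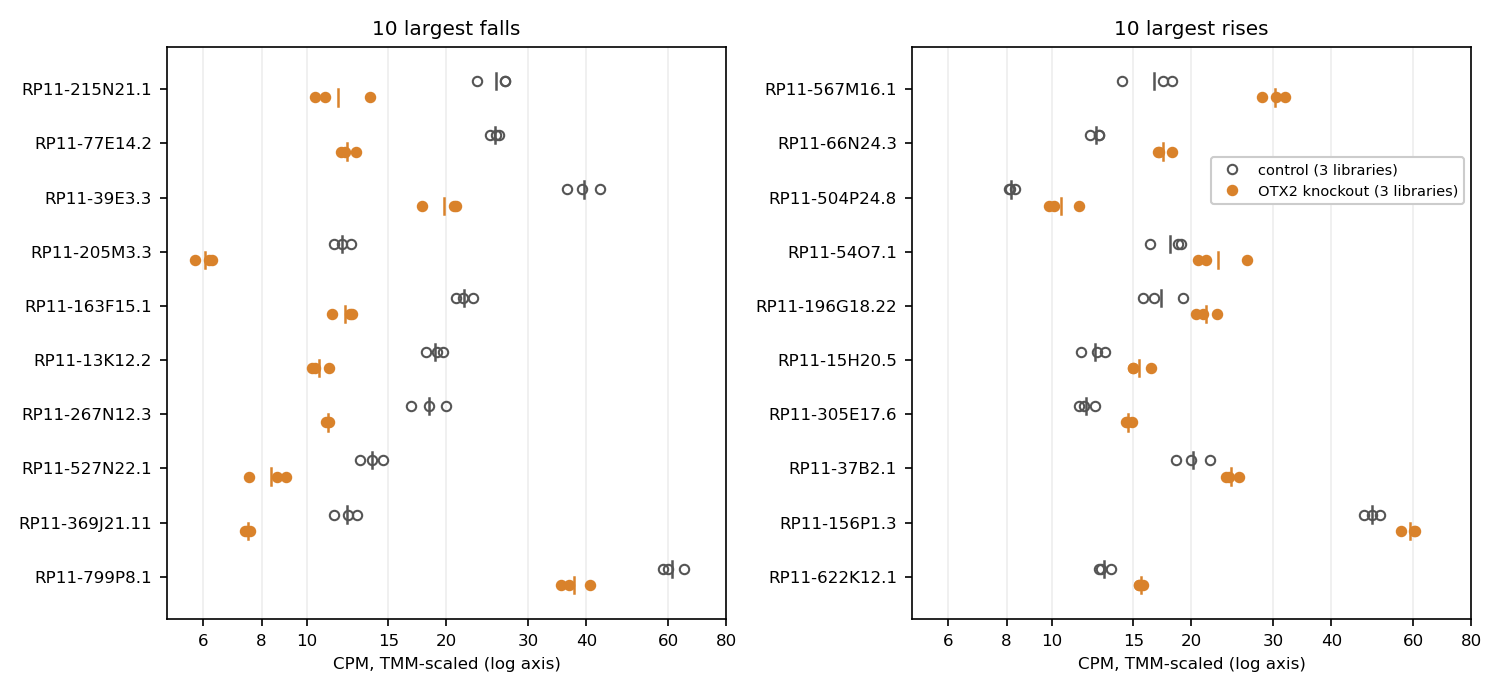
CPM (log axis) in each of the 3 control libraries (open circles) and 3 knockout libraries (filled circles) for the 10 largest falls and the 10 largest rises among called loci whose groups did not overlap, with vertical bars at the group means. The groups are separate in every row because the loci were chosen so, and the means differ most for RP11-215N21.1 among the falls (2.19-fold) and for RP11-567M16.1 among the rises (1.82-fold).

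Of the 10 loci with the most counts, RP11-799P8.1 had the largest change, the 1.62-fold fall given above. RP11-453F18__B.1, the highest at 84.0, 83.8 and 86.7 CPM in the controls and 85.4, 85.9 and 90.3 CPM in the knockouts, passed in neither direction (adjusted p = 0.521), and the 95% interval of its fold change ran from 0.961 to 1.10, but with library totals alone it was called as a rise (log2 fold change 0.12, adjusted p = 0.0436). RP11-159D12.2 held 90.6, 74.6 and 81.9 CPM against 71.0, 69.1 and 76.6 CPM. The groups overlapped and control replicate 1 was the highest library, and although the locus passed the test (adjusted p = 0.0289), the call was lost without that library, without knockout replicate 1 or 2, with upper-quartile scaling or library totals alone, and with a stricter filter. RP11-566H8.3 fell from 74.2, 68.0 and 71.4 CPM to 61.6, 62.9 and 62.4 CPM, a fall of 1.14-fold whose call was lost with library totals alone.

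RP11-735A19.4 rose 1.14-fold, from 55.3 ± 1.67 to 63.1 ± 1.04 CPM, and RP11-715J22.6 rose 1.18-fold, from 47.8 ± 1.79 to 56.6 ± 1.35 CPM (SD, n = 3 per group). RP11-119D9.1 fell 1.24-fold, from 56.4 ± 0.995 to 45.6 ± 1.32 CPM, and RP11-168O16.1 fell 1.37-fold, from 54.96 ± 1.48 to 40.01 ± 1.74 CPM. RP11-510C10.3 held 46.9 ± 3.94 CPM in the controls and 49.3 ± 3.23 CPM in the knockouts and passed in neither direction, with a 95% interval of the fold change from 0.956 to 1.16. With RP11-156P1.3 and RP11-799P8.1 above, 3 of the 10 highest loci rose and 5 fell. Of all tested genes 39.7% were called, and of those with the same sum 46.5%. Shares by level among other genes are not given here, so these counts do not set the highest loci apart from other genes. Calls were more frequent among loci with more counts: of the 29 loci with the most counts 72.4% were called, of the next 28 53.6% and of the last 28 32.1%, and the median SE of the log2 fold change was 0.05, 0.07 and 0.08 in that order.

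For the 40 loci that passed in neither direction, the data bound the change more than they show its absence. For 23 of them the 95% interval of the fold change lay wholly within 1.2-fold of no change. No called locus had such an interval. Counted over called and uncalled genes alike, the share was 27.1% of the 85 loci, beside 30.1% of all tested genes and 52.2% of those with the same sum. For the other 17 it reached beyond, and over all 40 the intervals ran from 0.782 to 1.33.

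**Figure D3:**
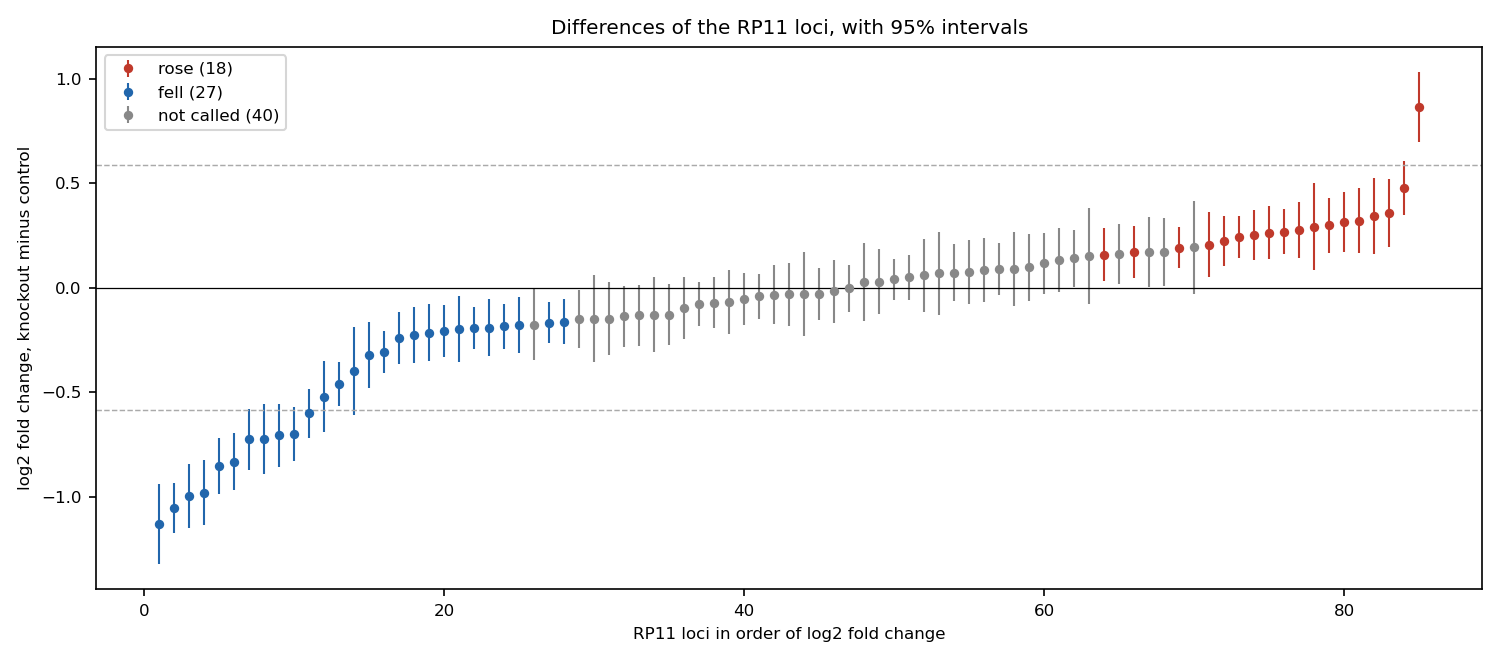
Log2 fold change, knockout minus control, of each of the 85 loci in rising order, with its 95% interval, coloured by call (27 fell, 40 not called, 18 rose). Dashed lines mark a 1.5-fold change in either direction, which 11 falls and 1 rise pass, and the intervals of the 40 uncalled loci stay between 0.782-fold and 1.33-fold.

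Loci named for the same clone lie near each other in the genome, since 1 such clone holds a single stretch of a chromosome, so they are not independent. The 85 loci came from 82 clones, and 3 clones gave a pair of loci each. In the pair from RP11-13K12, the locus RP11-13K12.1 held 42.7, 40.3 and 42.6 CPM in the controls and 40.3, 38.4 and 40.4 CPM in the knockouts (log2 fold change -0.08, adjusted p = 0.235), while RP11-13K12.2 had the 1.78-fold fall given above. With library totals alone the change of RP11-13K12.1 was 0.002 on the log2 scale, the other sign. The ratio of RP11-13K12.1 to RP11-13K12.2, which needs no scaling between libraries, was 2.23, 2.24 and 2.17 in the controls and 3.86, 3.74 and 3.62 in the knockouts. Every knockout ratio was above every control ratio.

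In the pair from RP11-504P24, RP11-504P24.4 held 11.1, 10.7 and 10.8 CPM in the controls and 10.6, 10.2 and 11.0 CPM in the knockouts. RP11-504P24.8, which passed the sum through the knockouts, rose. Their ratio was 1.34, 1.31 and 1.34 in the controls and 1.05, 0.892 and 1.11 in the knockouts, again without overlap. In the pair from RP11-54O7, the same knockout library was the highest in both loci: RP11-54O7.3 held 13.4, 13.9 and 16.2 CPM in the controls and 19.8, 15.9 and 14.2 CPM in the knockouts (adjusted p = 0.157), beside the called rise of RP11-54O7.1. The log2 fold change of RP11-54O7.3 was 0.19 with all libraries and 0.05 without knockout replicate 1, and in edgeR's test the locus was called without knockout replicate 3 (0.29, adjusted p = 0.0243) and with no filter (adjusted p = 0.0346). Their ratios overlapped between the groups, with 1.24 ± 0.131 in the controls and 1.38 ± 0.0709 in the knockouts (SD, n = 3 per group). An exact two-sided permutation test over the libraries gave p = 0.1, 0.1 and 0.3 for the ratios of the pairs from RP11-13K12, RP11-504P24 and RP11-54O7, or 0.15, 0.15 and 0.3 adjusted over the 3 pairs, and 3 libraries against 3 cannot give less than 0.1.

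Other tested RP11 rows below the sum shared a clone with some of the loci. With them, 37 of the 85 loci had at least 1 tested partner, on 34 clones, which made 57 pairs. Both partners were called in the same direction in 7 pairs and in opposite directions in 1, while 1 partner alone was called in 28 and neither in 21. The 7 pairs came from 4 clones, so they are not independent, and 16.3% of the tested RP11 rows below the sum were called. The partners below the sum have few counts, so a missing call among them says little.

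The following clones were chosen after their values were seen. All 3 tested loci of RP11-39E3 fell by about the same factor: RP11-39E3.3 fell 1.99-fold, RP11-39E3.4 fell 2.16-fold from 1.64, 1.25 and 1.65 CPM to 0.958, 0.550 and 0.600 CPM, and RP11-39E3.5 fell 1.97-fold from 3.07, 2.47 and 2.78 CPM to 1.38, 1.41 and 1.44 CPM. On RP11-715J22, 4 of 5 tested loci rose: RP11-715J22.6 at 1.18-fold, and RP11-715J22.2, RP11-715J22.3 and RP11-715J22.4 at 1.66-fold, 1.60-fold and 1.55-fold. The fifth, RP11-715J22.1, had 106 counts in all and a log2 fold change of -0.12 (SE 0.39). On RP11-54O7 the third locus, RP11-54O7.16, rose 1.27-fold, as did RP11-54O7.1. The pair with opposite calls was on RP11-304L19, where RP11-304L19.5 fell 1.16-fold with 11073 counts and RP11-304L19.11 rose 2.12-fold with 89 counts, the call of RP11-304L19.5 being lost with library totals alone and without control replicate 3.

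**Figure D4:**
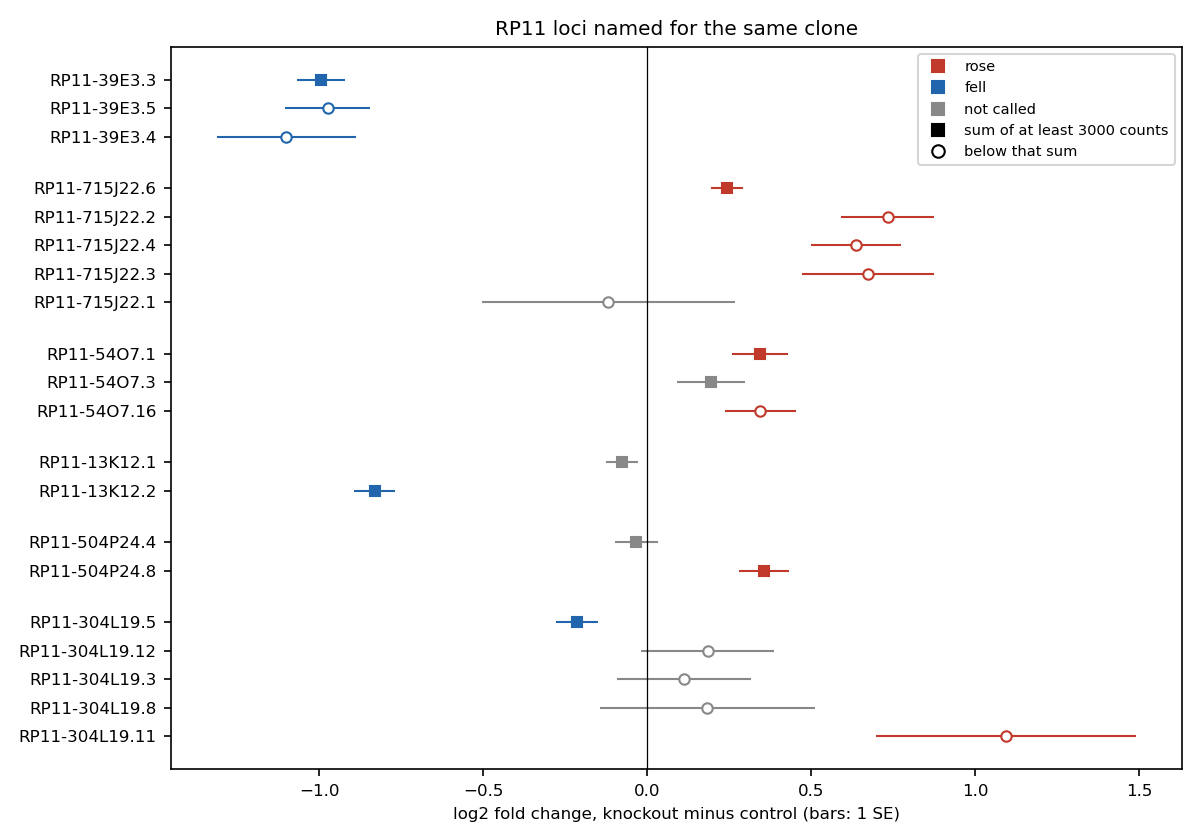
Log2 fold change, knockout minus control, with 1 SE, of the tested RP11 loci on 6 clones, as squares for loci with at least 3000 counts and open circles for those below. The 3 loci of RP11-39E3 lie together near -1, those of RP11-13K12 lie apart at -0.08 and -0.83, and 4 of 5 on RP11-715J22 lie above 0.

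Long noncoding RNAs with established names give a frame for these values. Of a list of 42 such RNAs, 32 were tested, with a median level of 51.1 CPM, and 7 rose and 10 fell (21.9% and 31.2%). The shares were 21.2% and 18.5% of all tested genes, and 18.7% and 27.8% of those with at least 3000 counts. Their median log2 fold change was -0.01, beside 0.01 over all tested genes. The falls include the host genes SNHG1, SNHG6, SNHG8, SNHG12 and SNHG15, so the list is not a neutral sample of long noncoding RNAs. DANCR, which restrains differentiation of epidermal progenitors, rose from 7.75, 7.71 and 7.93 CPM to 19.1, 17.9 and 18.4 CPM, a rise larger than that of any of the 85 loci. SNHG12, a host gene of small nucleolar RNAs, fell from 67.8, 64.9 and 64.6 CPM to 50.4, 48.8 and 50.8 CPM, and MIR22HG, the host of miR-22, rose 3.23-fold from low levels. OTX2-AS1, transcribed at the OTX2 locus, fell from 15.1, 12.1 and 13.2 CPM to 8.05, 8.54 and 8.99 CPM (log2 fold change -0.66, SE 0.08), a fall of the size of those of RP11-369J21.11 and RP11-799P8.1.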

How the data were processed

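The authors deposited a table of raw counts per gene symbol, 1 column per library. STAR and hg38 are named per the submitters' processing notes, and the sources used here give no counting program, annotation, strand setting or filter. Of 50883 rows, 17682 were at 0 in all libraries and 0 named no gene. Groups come from the genotype label, with 3 libraries each, and replicate numbers only name libraries. All libraries come from the same line, and p-values reflect the spread between the libraries of a group. The labels of genotype, replicate and day do not say whether each library was its own infection.

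The test was edgeR 4.0.16 under R 4.3.3 (filterByExpr defaults, TMM, quasi-likelihood F test, Benjamini-Hochberg over 18420 genes). The biological coefficient of variation was 5.30%, on 4 residual degrees of freedom. The test and intervals also drew on the spread of all tested genes, with a median of 10.6 prior degrees of freedom. A fold change is the ratio of mean CPM, while log2 values and 95% intervals come from the fit, and 3 counts equal 0.0471 to 0.0563 CPM. Intervals cover only the spread of these libraries. Alternatives used DESeq2 1.42.0, limma 3.58.1, other scalings and filters, other sums and 5 libraries. The script was tested on simulated data, where it recovered 62% of 50 genes changed 1.2-fold and 96% of 50 changed 1.5-fold, with 17 false calls.

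Loci and lists were chosen with earlier results of these data known. The naming rule took the 10 highest loci, the 10 largest rises and falls (adjusted p under 0.05, no overlap), loci nearest the sum, pairs from 1 clone and 4 named long noncoding RNAs. Planned comparisons with overlapping genes and a promoter motif were not run, since 0 loci matched the references. Not all of the cell type marker lists examined are reported here.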

Additional observations from a re-analysis of the deposited data

How the results depend on the processing

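Of the 18 rises and 27 falls, 14 and 17 were called under each of 13 alternatives (the scalings, filters, DESeq2, limma-voom and leaving out each library in turn), and 0 switched to a call in the other direction. With library totals alone, 26 loci rose and 17 fell, and of all tested genes 5210 rose and 2034 fell. With the test against 1.5-fold, 1 locus rose and 6 fell, and over all genes 1050 rose and 157 fell, because that test asks for larger changes. With a sum of at least 1000 the set grew to 258 loci, of which 45 rose and 58 fell, and with at least 10000 it shrank to 22, of which 5 rose and 11 fell. With at least 1500 counts in each group, 76 loci remained, of which 16 rose and 25 fell. These sets were read from the main fit, where 21.2% of all tested genes rose and 18.5% fell. Leaving out 1 library at a time gave 14 to 19 rises and 22 to 26 falls among the loci, and 3267 to 3861 rises and 2630 to 3653 falls among all genes. DESeq2 called 15 rises and 25 falls among the loci, and 3233 rises and 3335 falls among all genes. The log2 fold changes of RP11-13K12.1 and RP11-504P24.4, called in neither direction, were of the other sign with library totals alone, at 0.00169 and 0.0455. No paired analysis was possible because the labels give no replicate number shared between the groups.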

Other observations

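Of 1593 tested RP11 rows below the sum, 149 rose (9.35%) and 111 fell (6.97%), and with groups that did not overlap 67 rose and 27 fell more than 2-fold. A row with few counts could enter the test through the group where it is high, so these counts support no comparison with the loci above the sum. The following were chosen after their values were seen. RP11-554D14.4 rose 7.32-fold, from 0.402 ± 0.146 to 2.94 ± 0.166 CPM (SD, n = 3 per group). RP11-690J15.1 fell 4.31-fold, from 4.58 ± 0.365 to 1.06 ± 0.168 CPM, RP11-754N21.1 fell 3.58-fold and RP11-1016B18.1 fell 3.45-fold.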
